A study of Mus musculus with 9 samples.

Results

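Transient receptor potential (TRP) channels are cation channels of the cell surface that open to chemical, thermal or receptor signals, and several of them are opened or blocked by plant terpenes such as menthol and camphor. The 10 genes described here are Trpa1, Trpm8, Trpv1, Trpv2, Trpm3, Trpm2, Trpm7, Trpc1, Trpc4 and Trpc5. They were chosen by name, and each matched 1 transcript cluster with a single gene symbol among the 22206 clusters of the array. Hippocampal RNA of male ICR mice aged 8 weeks was measured on 9 Clariom S arrays, 3 per group. The samples of a group are numbered as replicates, with nothing on whether each came from 1 mouse or a pool, so p-values measure the spread between these samples. Over 7 days the mice inhaled, by whole-body exposure, 1% Tween 80 as vehicle, or linalyl acetate (LA), an ester of lavender oil, at 1% or 10%. All 3 groups then met the tail suspension test, and the labels of every sample give 30 minutes for inhalation before the test. The description field of 5 of the 9 samples tells of another experiment with oral dosing and injection, from which no group was taken.

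In sensory neurons TRPA1 answers irritants such as mustard oil, TRPM8 answers cold and menthol, and TRPV1 answers heat and capsaicin. In brain, TRPC channels carry current after receptors that signal through phospholipase C, TRPM2 opens to ADP-ribose under oxidative stress, and TRPM7 joins a channel to a kinase and carries magnesium and zinc. TRPM3 opens to heat and to the steroid pregnenolone sulfate, and its gene is transcribed in neurons and strongly in the choroid plexus, the secretory epithelium of the ventricles, which lies beside the hippocampus.

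All values are log2 signals, so that a difference of 1 is a doubling, and levels of different genes are not ranked because each probe set has its own response. Of the 10 genes, 7 had a mean over the arrays above the 40th percentile of all clusters (5.98), a common limit for low signals, and Trpa1, Trpm8 and Trpv1 did not. A second reference was the 1445 clusters of olfactory, vomeronasal and bitter taste receptors, which are little transcribed in brain. Trpm3, Trpm2, Trpm7, Trpc1, Trpc4 and Trpc5 lay above the 95th percentile of these receptors (6.11), and Trpa1, Trpm8, Trpv1 and Trpv2 did not. Array medians lay between 6.84 and 6.88. All 9 hippocampal neuron markers with a cluster of their own (among them Prox1, Neurod6 and Wfs1) were above 5.98, with a list mean of 9.67 to 10.51 per array, while 2 of 10 sensory ganglion markers were. The third vehicle array stands apart in that its values differ between the tables deposited for the series, the signal table and the series matrix (r = 0.981 across clusters, against at least 0.9993 for the other 8 arrays). For it Trpm3 was 11.78 in the signal table and 15.41 in the series matrix, and Trpc5 9.04 and 10.08, while the other 8 genes differed by at most 0.37. On the other arrays no TRP gene differed by more than 0.227 between the tables.

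The genes also differed in the 250 bases before their transcription starts, a feature that their choice did not use. RefSeq promoters (build GRCm38.p6) were at hand for 9 of the 10, in 12 windows, and the number of CpG dinucleotides was counted in each, since promoters rich in CpG are common in broadly transcribed genes. The median over all 32851 promoters was 6. Trpm8 had 1, Trpv1 had 2 and the 3 starts of Trpv2 had 2, 2 and 5. Trpm7 had 26, Trpc1 had 17, Trpc4 had 12, Trpm2 had 10 and Trpc5 had 7, while the upstream and downstream starts of Trpm3 had 17 and 9. Windows are shown for Trpm3, the gene that varied most between arrays, for Trpm7, with the most CpG, and for Trpv1 and Trpm8, with few. They run 5′ to 3′ on the strand of the gene, with every CpG in capitals. They lie at chr19:22138796-22139045 (plus strand) and chr19:22447958-22448207 (plus) for Trpm3, chr2:126876262-126876511 (minus) for Trpm7, chr11:73233899-73234148 (plus) for Trpv1 and chr1:88306485-88306734 (plus) for Trpm8.
Trpm3, upstream start: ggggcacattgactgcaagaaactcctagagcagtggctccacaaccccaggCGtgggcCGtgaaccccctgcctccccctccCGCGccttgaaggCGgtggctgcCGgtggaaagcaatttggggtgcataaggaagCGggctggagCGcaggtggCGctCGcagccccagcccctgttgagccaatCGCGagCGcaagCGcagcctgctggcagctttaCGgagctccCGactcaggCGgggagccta
Trpm3, downstream start: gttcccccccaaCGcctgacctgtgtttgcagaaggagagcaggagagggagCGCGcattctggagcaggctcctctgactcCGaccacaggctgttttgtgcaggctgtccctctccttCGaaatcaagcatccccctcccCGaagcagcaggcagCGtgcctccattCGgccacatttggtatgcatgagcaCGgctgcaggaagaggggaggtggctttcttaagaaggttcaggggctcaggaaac
Trpm7: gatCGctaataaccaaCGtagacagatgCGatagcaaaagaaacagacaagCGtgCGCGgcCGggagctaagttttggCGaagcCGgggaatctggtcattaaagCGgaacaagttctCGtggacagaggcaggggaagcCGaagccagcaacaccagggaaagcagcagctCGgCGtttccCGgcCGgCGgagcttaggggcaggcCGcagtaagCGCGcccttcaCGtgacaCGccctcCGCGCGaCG
Trpv1: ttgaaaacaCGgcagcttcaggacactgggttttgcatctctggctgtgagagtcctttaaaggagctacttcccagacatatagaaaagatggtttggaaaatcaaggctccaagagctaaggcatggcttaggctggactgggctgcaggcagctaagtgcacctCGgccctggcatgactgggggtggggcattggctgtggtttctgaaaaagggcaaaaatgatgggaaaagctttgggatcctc
Trpm8: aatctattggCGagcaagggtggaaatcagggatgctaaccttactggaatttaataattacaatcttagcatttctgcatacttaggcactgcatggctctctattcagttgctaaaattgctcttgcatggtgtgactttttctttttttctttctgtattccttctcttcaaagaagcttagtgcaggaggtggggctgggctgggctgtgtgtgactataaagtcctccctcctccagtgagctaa
The motif TAATCC, the core bound by homeodomain factors such as OTX2 of the choroid plexus, was searched on both strands. It was in none of the 12 windows, against 6.25% of all promoters, and no match says only that these letters are not in these windows. Trpm3 also spans the gene of miR-204, whose seed (bases 2 to 8) is in capitals in its mature form.
mmu-miR-204-5p: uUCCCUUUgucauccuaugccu
No cluster of the array carries its name, so its level was not analysed here.

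Trpm3 varied more between arrays than any other of the 10 genes, over a range of 3.91 log2 units against at most 1.61 (Trpc5). The cluster of Trpm3 (TC1900000356.mm.2) had log2 signals of 11.93, 14.07 and 11.78 in the vehicle samples, of 15.69, 14.81 and 14.78 at 1% LA, and of 14.80, 12.49 and 13.64 at 10% LA. The lowest 1% LA value exceeded the highest of the vehicle group, and the 10% LA arrays overlapped both other groups. The mean was 12.59 ± 1.28 (SD, n = 3) in vehicle and 15.09 ± 0.52 (SD, n = 3) at 1% LA. They differed by 2.50 (SE 0.62, 95% interval 1.15 to 3.85), or 5.66-fold. Its p in limma's moderated test was 0.0016 before and 0.447 after adjustment over all clusters, so the difference did not pass the threshold of 0.05. At 10% LA the mean was 13.64 ± 1.16 (SD, n = 3), 1.05 above vehicle (SE 0.62, 95% interval -0.30 to 2.40, limma adjusted p = 0.564). Between the doses Trpm3 was lower at 10% LA by 1.45 (SE 0.62), with an unadjusted p = 0.037 and an adjusted p = 0.999 by limma.

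The Trpm3 differences depended on which deposited value of the third vehicle array was used. With series matrix values the vehicle arrays read 11.99, 14.11 and 15.41. The difference was then 1.26 (SE 0.72) at 1% LA and -0.12 (SE 0.72) at 10% LA, and the limma adjusted p was 0.994 and 0.995. There the third vehicle array lay above 2 of the 3 arrays at 1% LA. Without that array the signal table gave 2.09 (SE 0.67) at 1% LA and 0.64 (SE 0.67) at 10% LA. The authors' deposited table gave signed folds of 7.66 (p = 0.0016, FDR 0.4442) at 1% LA and 3.45 (p = 0.1144, FDR 0.5635) at 10% LA, from group averages that are not plain means.

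**Figure D1:**
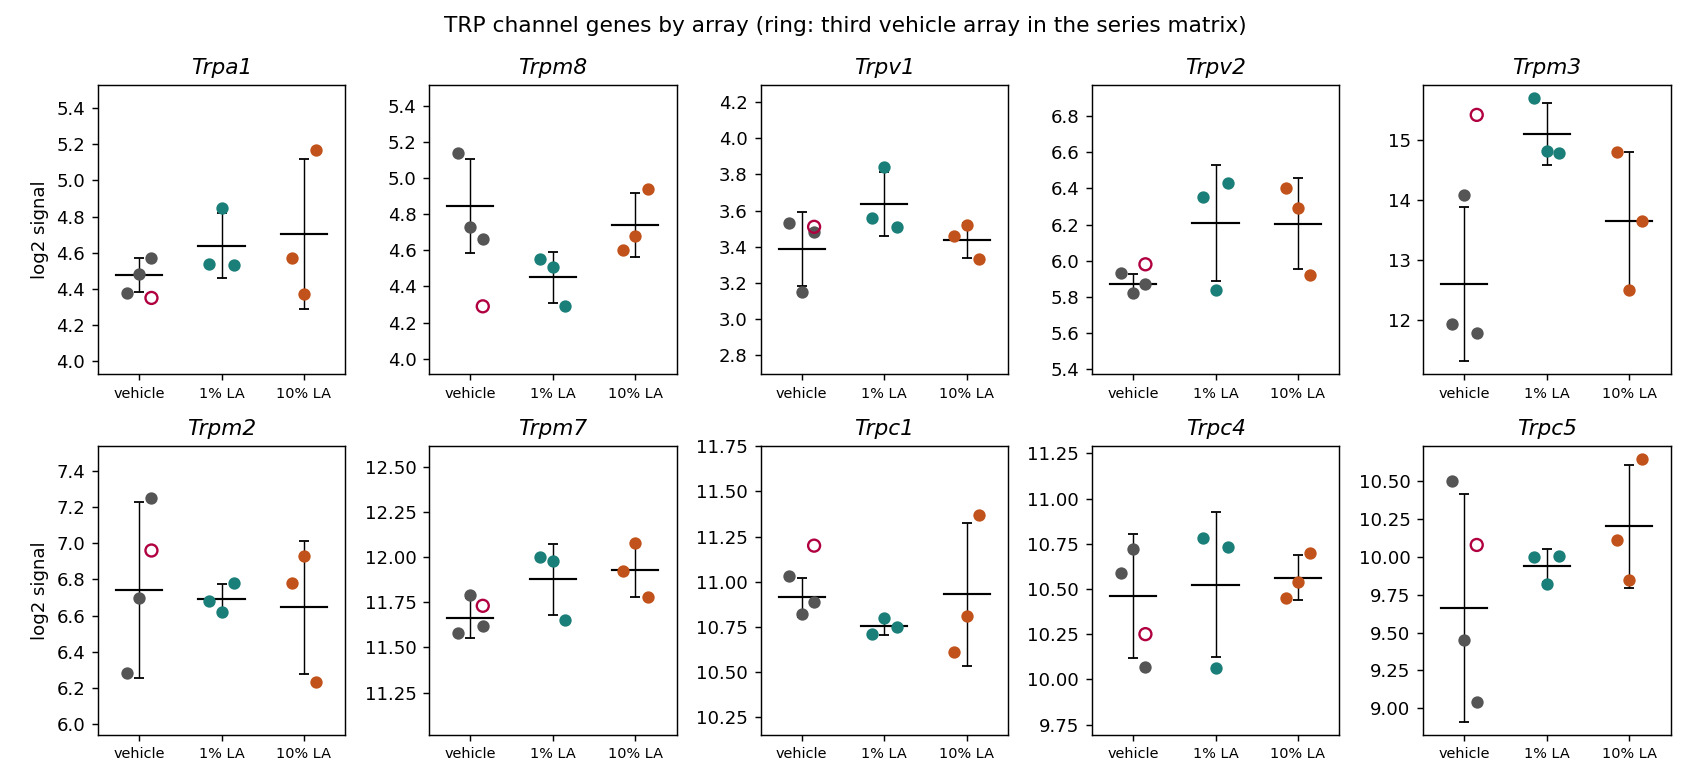
Log2 signal (vertical axis, own range in each panel) of the 10 TRP genes in the vehicle, 1% LA and 10% LA samples. Points are arrays of the signal table, bars the group mean and SD (n = 3), and the ring is the third vehicle array in the series matrix. For Trpm3 that ring is at 15.41 and the matching point at 11.78, while the rings of the other genes lie nearer to their points.

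Set beside Ttr, the thyroxine carrier gene that marks the choroid plexus, Trpm3 was high on the arrays on which Ttr was high. In the vehicle samples Ttr was 10.42, 19.13 and 11.63, at 1% LA 19.64, 19.43 and 19.51, and at 10% LA 19.63, 16.06 and 18.75. The arrays with the lowest Ttr, vehicle replicates 1 and 3, also had the lowest Trpm3, and the vehicle array with Ttr at 19.13 had Trpm3 at 14.07, above 2 of the 10% LA arrays. Because the Ttr values fell into separate clusters (a gap of 4.43 in a range of 9.22), no correlation over all 9 arrays is given. Over the 7 arrays of the upper cluster, which hold 1 vehicle and all 6 LA arrays, Pearson's r was 0.897 (exact permutation p = 0.00079, two-sided) and Spearman's rho 0.893 (exact permutation p = 0.012). Over the 10 TRP genes tested against Ttr the Benjamini-Hochberg adjusted p for Trpm3 was 0.0079 for r and 0.119 for rho by the exact permutation test. Trpc1 had a rho of -0.857 (exact permutation p = 0.024) with the same adjusted p of 0.119, and a rho of -0.381 in the series matrix. Without the 2 arrays farthest from the median Ttr (10% LA replicates 2 and 3) r was 0.833 for Trpm3. For Trpc5 it was then 0.971, against 0.068 with them. For Trpv2 it was 0.814, against -0.048, and for Trpc1 -0.793, against -0.180. The remaining TRP genes lay between -0.465 (Trpm8) and 0.534 (Trpv1), so a high r on so few arrays was not particular to Trpm3. The highest signal of any cluster was 19.85 to 19.93 per array. Ttr stood near the top of the scale on the 1% LA arrays, 10% LA replicate 1 (19.63) and vehicle replicate 2 (19.13). The r of 0.833 rests on these arrays alone. In the series matrix the upper cluster has 8 arrays, the third vehicle array included (Ttr 19.53, Trpm3 15.41), with r = 0.891 and rho = 0.976 (exact permutation p = 5.0e-05 and 0.0004, adjusted 0.0005 and 0.0040). Treatment and choroid plexus level are not separate in these arrays, and within a group 3 arrays are too few for a correlation.

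**Figure D2:**
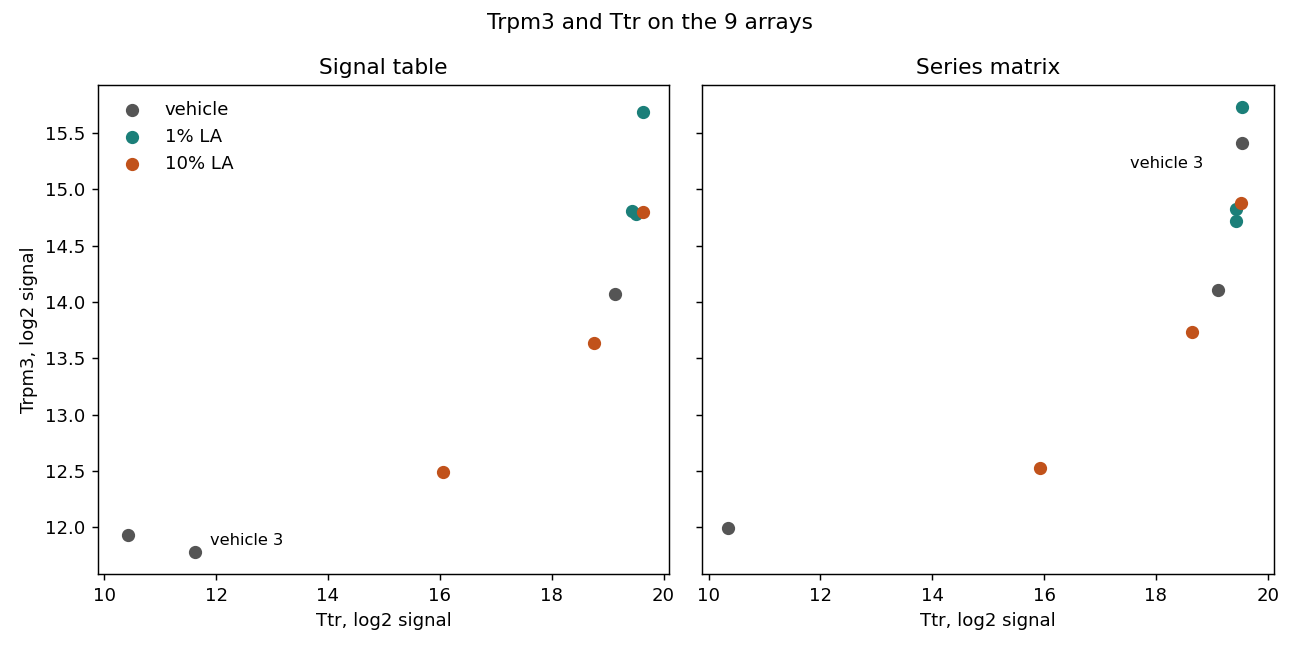
Log2 signal of Trpm3 (vertical) against Ttr (horizontal) on the 9 arrays, with the signal table on the left and the series matrix on the right, and points coloured by group. The third vehicle array sits at the lower left (Ttr 11.63, Trpm3 11.78) in the signal table and at the upper right (19.53, 15.41) in the series matrix.

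Most choroid plexus markers read higher at 1% LA in the signal table, as Trpm3 did, and none passed limma's adjusted threshold. Of 24 markers, 21 were higher at 1% LA at an unadjusted p under 0.05, against 4.78% of all clusters, and 0 were lower. In 16 the 1% LA arrays lay above the vehicle arrays without overlap, against 5.96% of all clusters. Col8a2, Wfikkn2 and Msx1 differed by 0.0067, 0.27 and 0.060 and did not reach an unadjusted p under 0.05. At 10% LA 11 of 24 were higher, against 5.14%, and 1 had no overlap, against 5.88%. Between the doses 5 of 24 were lower at 10% LA, against 1.29%. With series matrix values 2 of 24 were higher at 1% LA and 0 at 10% LA at an unadjusted p under 0.05, and the median differences were 1.06 and 0.15. Shares of all clusters were not counted with series matrix values. Of the 24, 21 were above the low-signal limit. In the signal table the median log2 difference of the 24 was 2.22 at 1% LA and 1.04 at 10% LA, against 2.50 and 1.05 for Trpm3 and -0.017 and -0.013 over all clusters. The mean log2 signal of the markers was 6.70 to 8.87 in vehicle, 9.39 to 10.34 at 1% LA and 7.54 to 9.95 at 10% LA. In the series matrix the vehicle range was 6.70 to 10.03. Kcnj13, a potassium channel gene of that epithelium, differed by 4.64 (SE 1.10) at 1% LA, Kl, which encodes klotho, by 3.94 (SE 0.89) and Folr1, a folate receptor gene, by 3.56 (SE 1.09). Ttr differed by 5.80 (SE 1.70). These 4 differences in the series matrix were 2.69 (SE 1.31) for Kcnj13, 1.84 (SE 1.00) for Kl, 1.85 (SE 1.21) for Folr1 and 3.14 (SE 1.80) for Ttr, and the groups overlapped for each. With the mean standardised level of the markers as a covariate, Trpm3 differed by 0.31 (SE 0.26) at 1% LA and by -0.17 (SE 0.21) at 10% LA, neither past the threshold. Marker levels of the 1% LA and vehicle arrays did not overlap in the signal table, so that treatment and this level cannot be told apart there. Of 6 meningeal markers, 2 (Dcn and Igf2) were higher at 1% LA at an unadjusted p under 0.05, against 4.78% of all clusters. With series matrix values 0 of the 6 were. In the signal table Dcn and Igf2 differed by 1.35 and 2.99, and Col1a1, Col1a2, Slc6a13 and Ptgds by 0.083, 0.11, -0.097 and 0.23. Igf2 was lowest on the arrays with the lowest Ttr, at 9.41 and 9.44 in vehicle replicates 1 and 3 and 9.32 in 10% LA replicate 2. Whether its RNA came from meninges was not tested. List means of the 6 markers in the signal table were 9.17 to 9.91 in vehicle, 9.95 to 10.45 at 1% LA and 8.74 to 10.3 at 10% LA. The vehicle range was 9.16 to 10.75 in the series matrix. Their part in the Trpm3 values was not tested. In tissue RNA, more cells of a type and more RNA per cell cannot be told apart either, and the single cluster of Trpm3 does not separate its transcripts in neurons from those in epithelium.

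The genes whose rank order over the 9 arrays of the signal table was most like that of Trpm3, among 11842 other named clusters, were Htr2c, a serotonin receptor gene (Spearman's rho 1.0), Folr1 (0.983), the kinase gene Stk32a (0.983), the protease inhibitor gene Spint2 (0.979) and Pcolce2 (0.971). In the series matrix their rho was 0.933, 0.967, 0.817, 0.950 and 0.967. For Trpc5 they were Sos2 (0.983) and Map7d2 (0.979), for Trpc1 Slc17a6 (0.979) and Fam160b1 (0.954), and for Trpc4 Lman1 (0.962) and Cbr2 (0.919). For Trpm7 they were Rabep1 (0.967) and Htra2 (0.933), for Trpv2 Zfp930 (0.967) and Tmx1 (0.962), and for Trpm2 Ppfia1 (0.954) and Atg14 (0.929). The rho of these 12 genes in the series matrix ranged from 0.55 to 0.95. These values describe 9 arrays and were chosen as the highest of many.

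Among the sensory channels, no difference passed the test, and signals were near the receptors' background. Trpa1, the irritant channel gene (TC0100001989.mm.2), had log2 signals of 4.38, 4.48 and 4.57 in vehicle, 4.54, 4.85 and 4.53 at 1% LA and 4.57, 4.37 and 5.17 at 10% LA. The groups overlapped in the signal table, with differences of 0.16 (SE 0.21, limma adjusted p = 0.832) and 0.23 (SE 0.21, limma adjusted p = 0.737). With series matrix values vehicle read 4.21, 4.37 and 4.35 and 1% LA 4.41, 4.68 and 4.53, without overlap. The differences there were 0.23 (SE 0.21, limma adjusted p = 0.994) and 0.25 (SE 0.21, limma adjusted p = 0.932).

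Trpm8, the cold and menthol channel gene (TC0100000846.mm.2), read 5.14, 4.73 and 4.66 in vehicle, 4.55, 4.51 and 4.29 at 1% LA and 4.60, 4.68 and 4.94 at 10% LA. The 1% LA arrays were the lowest of the 9. The signal difference at 1% LA was -0.39 (SE 0.19, 95% interval -0.80 to 0.016, limma adjusted p = 0.537). With series matrix values vehicle replicate 3 read 4.29, so that the vehicle and 1% LA values overlapped.

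Trpv1, the capsaicin channel gene (TC1100001019.mm.2), read 3.53, 3.15 and 3.48 in vehicle, 3.56, 3.84 and 3.51 at 1% LA and 3.46, 3.52 and 3.33 at 10% LA. Its groups overlapped, with a difference of 0.25 (SE 0.18) at 1% LA and of 0.050 (SE 0.18) at 10% LA. Trpv2, a channel gene of macrophages and of some neurons (TC1100000802.mm.2), read 5.93, 5.82 and 5.87 in vehicle, 6.35, 5.84 and 6.43 at 1% LA and 6.40, 6.29 and 5.92 at 10% LA. Of the 6 LA arrays 4 lay above every vehicle array by at least 0.3, and the groups overlapped at both doses, with differences of 0.33 (SE 0.20) at each dose (limma adjusted p = 0.609 and 0.580).

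Markers of microglia, which can hold Trpv2 and Trpm2 RNA, stood at list means of 7.84 to 8.40 in vehicle, 8.32 to 8.61 at 1% LA and 8.36 to 9.13 at 10% LA, and their part in the Trpv2 values was not tested. All 10 of these markers were above the low-signal limit, and 3 were higher at each dose at an unadjusted p under 0.05, against 4.78% and 5.14% of all clusters. In the series matrix their vehicle list means were 8.17 to 8.44. There 1 was higher at 1% LA and 4 at 10% LA at an unadjusted p under 0.05. The share of all clusters was not counted with series matrix values, so these counts have no background beside them. Trpm2, the ADP-ribose gated channel gene (TC1000002437.mm.2), read 6.28, 6.70 and 7.25 in vehicle, 6.68, 6.62 and 6.78 at 1% LA and 6.78, 6.93 and 6.23 at 10% LA. The vehicle arrays spanned nearly the whole range of the gene, and the differences were -0.050 (SE 0.25, 95% interval -0.60 to 0.50) and -0.097 (SE 0.25, 95% interval -0.65 to 0.46). Both turned positive in the series matrix (0.0023 and 0.068).

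Trpm7, the channel-kinase gene (TC0200004543.mm.2), was the steadiest of the 10, within 0.50 log2 units over the 9 arrays. Its signals were 11.58, 11.79 and 11.62 in vehicle, 12.00, 11.98 and 11.65 at 1% LA and 11.92, 12.08 and 11.78 at 10% LA. The lowest arrays of each LA group lay within the vehicle range, and the differences were 0.21 (SE 0.17, 95% interval -0.17 to 0.59) and 0.26 (SE 0.17, 95% interval -0.12 to 0.64). The limma adjusted p was 0.711 and 0.611.

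Of the TRPC channels, which the plant sesquiterpene englerin A opens in the case of TRPC4 and TRPC5, none passed the test. Trpc1, whose product partners other TRPC subunits (TC0900002869.mm.2), read 11.03, 10.82 and 10.89 in vehicle, 10.71, 10.80 and 10.75 at 1% LA and 10.61, 10.81 and 11.37 at 10% LA. All 1% LA arrays lay below all vehicle arrays, by a mean difference of -0.16 (SE 0.20, 95% interval -0.60 to 0.28, limma adjusted p = 0.824), while the 10% LA arrays lay on both sides. The 10% LA difference was 0.017 (SE 0.20), and -0.20 without 10% LA replicate 3.

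Trpc4 (TC0300000407.mm.2) read 10.59, 10.72 and 10.07 in vehicle, 10.78, 10.06 and 10.73 at 1% LA and 10.45, 10.54 and 10.70 at 10% LA. The vehicle and 1% LA groups each held 1 low array and covered nearly the same range, with a difference of 0.063 (SE 0.23, 95% interval -0.45 to 0.57). At 10% LA the difference was 0.10 (SE 0.23).

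Trpc5 (TC0X00003127.mm.2) read 10.50, 9.45 and 9.04 in vehicle, 10.00, 9.82 and 10.01 at 1% LA and 10.11, 9.85 and 10.65 at 10% LA. The vehicle arrays spread over 1.46 log2 units and enclosed the 1% LA values. The difference was 0.28 (SE 0.32, 95% interval -0.43 to 0.99) at 1% LA and 0.54 (SE 0.32, 95% interval -0.17 to 1.25) at 10% LA. In the series matrix, where the third vehicle array read 10.08, these were -0.049 and 0.195. At 10% LA the signal table gave 0.96 (SE 0.25, limma adjusted p = 0.082) without vehicle replicate 1, 0.23 (SE 0.31) without vehicle replicate 3 and 0.32 (SE 0.35) without 10% LA replicate 3.

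**Figure D3:**
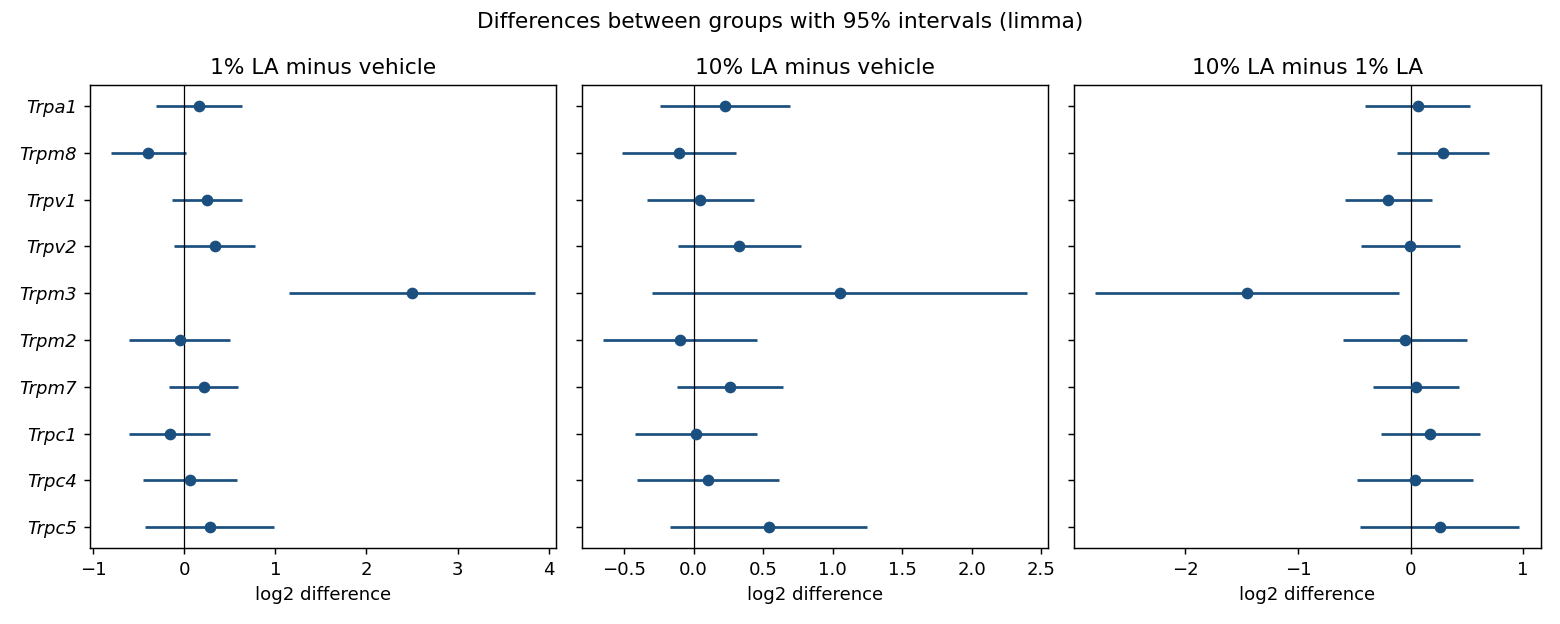
Log2 differences (horizontal axis) of the 10 genes for 1% LA minus vehicle, 10% LA minus vehicle and 10% LA minus 1% LA, each point with its 95% interval from limma. The horizontal range differs between panels. Only for Trpm3, at 1% LA (1.15 to 3.85) and between the doses (-2.80 to -0.10), does the unadjusted interval leave out 0.

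Counted over the 10 genes at 1% LA, 0 passed limma's adjusted threshold, as was true of all 22206 clusters, and 1 (Trpm3) had an unadjusted p under 0.05, where 9.52% of all clusters did (4.78% higher, 4.74% lower). Groups did not overlap in 3 of the 10 (Trpm3 higher, Trpm8 and Trpc1 lower), against 12.8% of all clusters (5.96% higher, 6.84% lower). At 10% LA 0 of the 10 passed, 0 had an unadjusted p under 0.05 and 0 had groups apart, against 0, 10.7% (5.14% higher, 5.54% lower) and 12.7% (5.88% higher, 6.8% lower) of all clusters. Between the doses 1 of 10 (Trpm3, lower) had an unadjusted p under 0.05, against 2.75% of all clusters (1.46% higher, 1.29% lower), and 1 of 10 (Trpm8, higher) had groups apart, against 7.14% (3.55% higher, 3.58% lower). The median difference of the 10 was 0.19, 0.17 and 0.045 in the 3 comparisons, against -0.017, -0.013 and 0 over all clusters. The comparisons with vehicle share the vehicle arrays and are not independent. Beside Trpm3, the other 9 genes differed from vehicle by at most 0.39 in size at 1% LA and 0.54 at 10% LA, with standard errors of 0.17 to 0.32. All these counts are of the signal table. With series matrix values 0 of the 10 had an unadjusted p under 0.05 in any comparison. At 1% LA groups were then apart in Trpa1 (higher) and Trpc1 (lower), and those of Trpm3 and Trpm8 overlapped. At 10% LA 0 were apart, and between the doses Trpv1 (lower) was. Shares of all clusters were not counted with these values.

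The remaining TRP genes and the genes that act with these channels gave no calls either. Of 17 further TRP family clusters with 1 symbol, 0 passed limma's adjusted threshold at either dose. At 1% LA 1 was higher (Trpv4) and 1 lower (Trpv6) at an unadjusted p under 0.05, against 4.78% and 4.74% of all clusters. At 10% LA 0 had an unadjusted p under 0.05, against 10.7%. Trpv4 and Trpv6 were named after their values were seen. Trpv4, a channel gene for osmotic and warm stimuli that choroid plexus epithelium also transcribes, read 5.58, 6.45 and 5.75 in vehicle, 8.38, 6.96 and 7.18 at 1% LA and 8.07, 5.90 and 6.17 at 10% LA. Its 1% LA arrays lay above the vehicle arrays, by 1.58 (SE 0.52, limma adjusted p = 0.456), and its 10% LA difference was 0.79 (SE 0.52). Vehicle replicate 3 read 7.31 in the series matrix, where the 1% LA and vehicle groups overlapped and the differences were 0.99 (SE 0.55) and 0.25 (SE 0.55). Trpv6, an epithelial calcium channel gene, had signals of 4.12 to 5.28, under the low-signal limit, and differed by -0.68 at 1% LA. With series matrix values the difference was -0.48 (SE 0.18, limma unadjusted p = 0.019, adjusted p = 0.994), and the groups did not overlap there either. Trpm4, a calcium-activated channel gene, read lower in every LA array of the signal table than in every vehicle array, by -0.36 (SE 0.17, limma adjusted p = 0.526) at 1% LA and -0.35 (SE 0.17, limma adjusted p = 0.488) at 10% LA. Vehicle replicate 3 read 7.17 in the series matrix, below the 6 LA arrays, and the differences there were -0.23 (SE 0.22) and -0.18 (SE 0.22). Trpc6, a relative of Trpc1, differed by 0.14 (SE 0.35) at 1% LA and by 0.030 (SE 0.35) at 10% LA. The lysosomal channel gene Mcoln1 differed by 0.18 (SE 0.17) and -0.027 (SE 0.17), and Pkd2, the polycystin channel gene, by 0.043 (SE 0.20) and -0.060 (SE 0.20).

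Among 24 genes that link receptors to TRPC channels, 0 passed the adjusted threshold of limma. At each dose 1 was higher (Orai3) and 1 lower (Itpr2) at an unadjusted p under 0.05. Of all clusters 4.78% were higher and 4.74% lower at 1% LA, and 5.14% and 5.54% at 10% LA. Orai3, a store-operated channel gene, differed by 1.04 and 0.98, and by 0.43 (SE 0.25) and 0.38 (SE 0.25) with series matrix values. Itpr2 differed by -0.53 and -0.52, and by -0.42 (SE 0.22) and -0.37 (SE 0.22) with series matrix values, not at an unadjusted p under 0.05. The median difference of the 24 in the signal table was -0.063 at 1% LA and -0.11 at 10% LA. Gnaq, the G protein subunit that activates phospholipase C, differed by -0.30 (SE 0.18) and -0.12 (SE 0.18), and Plcb1, that phospholipase in hippocampal neurons, by 0.047 (SE 0.20) and 0.21 (SE 0.20). Itpr1, a calcium release channel gene, differed by -0.037 (SE 0.18) and -0.080 (SE 0.18), and Stim1, the sensor of calcium stores, by 0.35 (SE 0.22) and 0.030 (SE 0.22).

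Of 10 magnesium handling genes set beside Trpm7, 1 was higher at an unadjusted p under 0.05 at each dose, against 4.78% and 5.14% of all clusters. It was the transporter gene Slc41a1 at both, with differences of 0.77 (SE 0.34, limma adjusted p = 0.508 and 0.451). For Slc41a1 vehicle replicate 3 read 10.13 in the signal table and 12.16 in the series matrix, and with the latter the differences were 0.15 (SE 0.30) and 0.14 (SE 0.30). Cnnm2, of a family linked to magnesium transport, differed by -0.027 (SE 0.20) and -0.057 (SE 0.20). Of 5 genes that make or break down the ligand of TRPM2, 0 had an unadjusted p under 0.05 at 1% LA, against 9.52% of all clusters. At 10% LA 1 of them (Parp2) was lower, against 5.54%. Cd38, which makes ADP-ribose compounds, differed by -0.14 (SE 0.19) and 0.080 (SE 0.19). Of 8 regulators of sensory TRP channels, 0 had an unadjusted p under 0.05 in any comparison, against 9.52%, 10.7% and 2.75% of all clusters.

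**Figure D4:**
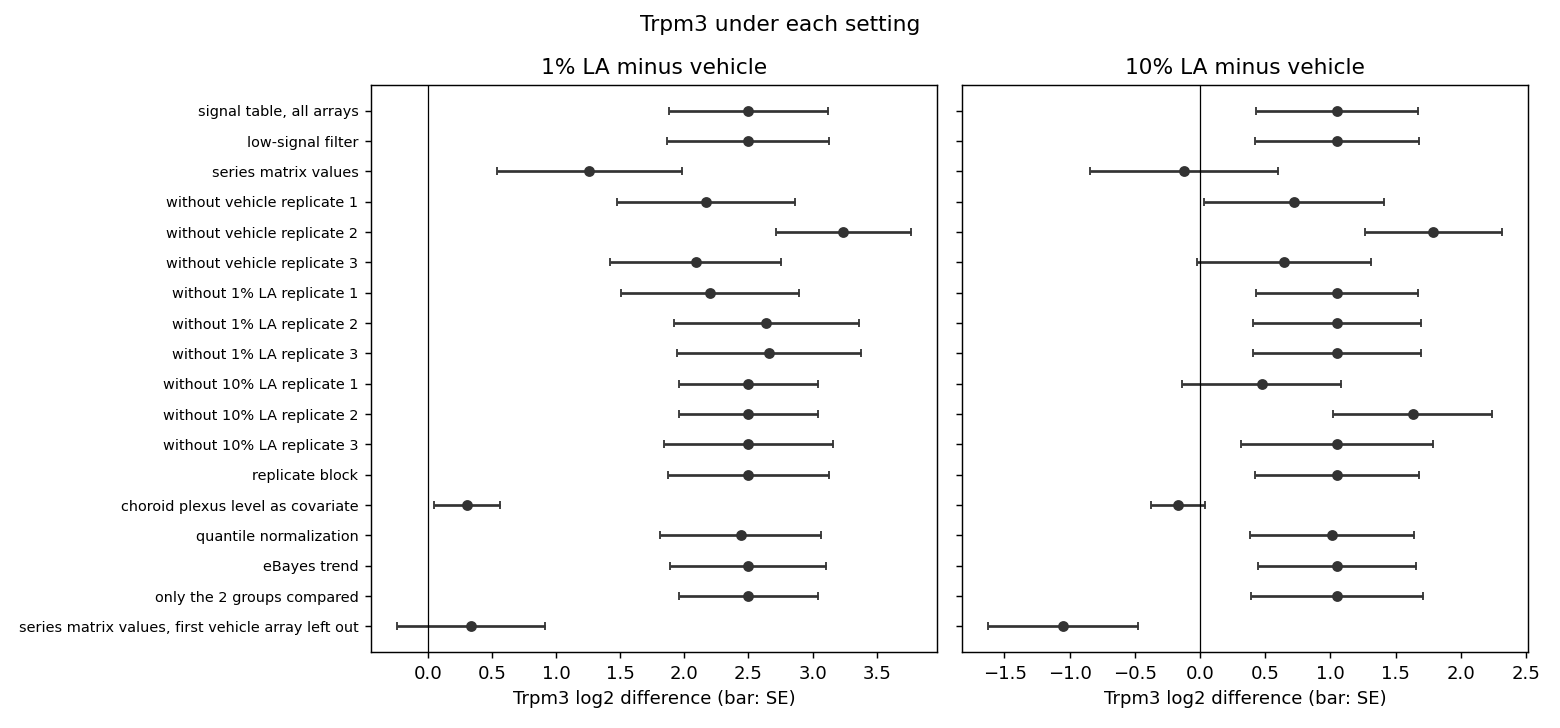
Log2 difference of Trpm3 (horizontal axis, bars are the SE) for 1% LA and 10% LA against vehicle under each setting of the analysis named at the left. At 1% LA it is positive throughout, from 0.31 to 3.24. At 10% LA it is negative with series matrix values (-0.12, and -1.05 with vehicle replicate 1 also left out) and with the choroid plexus covariate (-0.17).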

How the data were processed

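Log2 signals per transcript cluster were deposited by the authors, who normalized them by signal space transformation robust multi-chip analysis in Transcriptome Analysis Console 4.0.2, per the series' design text. The deposited comparison tables hold, per the file headers, log2 group averages, p-values and FDR p-values, and a signed fold of treated over vehicle, a score with no values between -1 and 1. The deposited series matrix holds log2 values under the same samples, with array medians of 6.87 to 6.91 over the clusters. Whether its values for the third vehicle sample come from the same array as those of the signal table is not given. No genome build for the array was used here.

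Groups came from the sample titles. The values were fitted as deposited with limma 3.58.1 (R 4.3.3), over all 22206 clusters and 9 arrays with a mean per group and no low-signal filter, so that every TRP gene was tested, and p-values were adjusted by Benjamini-Hochberg over all clusters (threshold 0.05). The fit was tested on simulated data. Intervals are 95% and unadjusted. Correlations used exact permutation of pairings, within clusters of arrays where a gap in Ttr exceeded a set share of its range.

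Named genes were all 10 TRP genes and a fixed set from each list, of which 1 gene is not reported here. Parp1, in that set, shares its cluster with another symbol and is not described, and other clusters with several symbols were left out of the lists. The TRP genes and lists were chosen with earlier results of these data known. Same-numbered arrays did not deviate together (r from -0.169 to 0.168 in 9 pairs, over 0.1 in 2), so numbers were not taken as pairs. Nothing in the labels gives batches. Precision is set by 3 arrays a group (median SE of a difference, 0.212). Alternatives were a low-signal filter, the series matrix, each array left out, a replicate block, a choroid plexus covariate, quantile normalization, an intensity trend and fits of only the groups compared. Series matrix values with vehicle replicate 1 left out, and series matrix values of the list genes, were added after seeing the data.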

Additional observations from a re-analysis of the deposited data

How the results depend on the processing

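No TRP gene passed limma's adjusted threshold under any of these settings, and the fits left Trpm3 positive at 1% LA throughout. With series matrix values the sign turned at 1% LA for Trpm2 (0.0023), Trpc4 (-0.042) and Trpc5 (-0.049). It also turned at 10% LA for Trpm3 (-0.12), Trpm2 (0.068), Trpc1 (-0.11) and Trpc4 (-0.016), and between the doses for Trpm2 (0.066). With the choroid plexus covariate it turned at 1% LA for Trpm2 (0.017), Trpc1 (0.017) and Trpc4 (-0.12), at 10% LA for Trpm3 (-0.17) and between the doses for Trpv2 (0.016). With series matrix values and vehicle replicate 1 left out it turned for Trpm8 (0.040 at 1% LA and 0.21 at 10% LA), Trpm3 (-1.05 at 10% LA), Trpc1 (-0.11 at 10% LA) and Trpm2 (0.066 between the doses). The cause was not tested. With each array left out in turn, the differences at 1% LA ranged from 2.09 to 3.24 for Trpm3, -0.28 to 0.20 for Trpm2, -0.13 to 0.30 for Trpc4 and -0.032 to 0.70 for Trpc5. At 10% LA they ranged from 0.47 (without 10% LA replicate 1) to 1.79 (without vehicle replicate 2) for Trpm3, -0.20 to 0.045 for Trpm8, -0.068 to 0.12 for Trpv1, -0.0067 to 0.39 for Trpa1, -0.33 to 0.16 for Trpm2, -0.20 to 0.18 for Trpc1, -0.092 to 0.23 for Trpc4 and 0.23 to 0.96 for Trpc5. Between the doses they ranged from -2.03 to -0.87 for Trpm3, -0.17 to 0.23 for Trpa1, -0.19 to 0.14 for Trpv2, -0.063 to 0.12 for Trpm7, -0.19 to 0.16 for Trpm2, -0.043 to 0.34 for Trpc1 and -0.19 to 0.17 for Trpc4. Clusters past the threshold, 0 in each comparison (2113, 2372 and 611 at an unadjusted p under 0.05), ranged from 0 to 88 at 1% LA and 0 to 195 at 10% LA, the highest without vehicle replicate 1. With the replicate block Trpm3 differed by 2.50 at 1% LA (limma adjusted p = 0.404), and the block changed no call. The relation of Trpm3 with Ttr kept its direction with the choroid plexus marker mean in place of Ttr (r = 0.929 over 6 arrays, exact permutation p = 0.0083).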
